A study of Mus musculus with 2 samples.

Results

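Genes that serve successive phases of the cell cycle were followed in ureters of mouse embryos at E14.5, in RNA labelled Gata2cKO against control RNA. The members were 42 genes out of 31870 named on the arrays: 13 genes of DNA replication and nucleotide supply, 6 regulators of the step from G1 into S phase, 20 genes of G2 and mitosis, and 3 Cdk inhibitors of the Cip/Kip family. They were chosen by name, as every non-control probe whose gene name was a listed member, and 57 probes represented them. Of the 42 genes, 40 were well above background in the control or the Gata2cKO RNA on both arrays and were tested. The other 2, Aurkb and Ccne2, were not well above background in either RNA on either array.

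Gata2cKO embryos had the genotype Tbx18(cre/+);Gata2(fl/fl), in which Cre is expressed under Tbx18, a gene of the mesenchyme that surrounds the early ureter. Controls were Tbx18(+/+);Gata2(fl/?), so they carried no Cre, and the Gata2cKO embryos were also heterozygous at Tbx18. All were of the NMRI background. Each of the 2 arrays held 1 control and 1 Gata2cKO RNA: array 1 was from females, with the control RNA in Alexa Fluor 555 and the Gata2cKO RNA in 647, and array 2 was from males, with the dyes exchanged. Sex and dye orientation therefore cannot be told apart, and how many embryos gave each RNA is not stated in the labels, so the spread between the arrays may be technical in part.

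Ratios are given throughout as log2 of Gata2cKO over control after background correction and loess normalization within each array, and the error is the SD of the 2 arrays. Gata2, the gene that was targeted, had ratios of 0.33 and 0.54 (mean 0.44 ± 0.15, SD, n = 2; limma, adjusted p = 0.41), and Tbx18 had 0.65 and 0.15 (mean 0.40 ± 0.36, adjusted p = 0.66). Where the Gata2 probe lies relative to the floxed part is not given, so it does not check the labels, and directions rest on the dyes named there. Over 20506 genes tested, 18 (0.0878%) passed limma's test at an adjusted p of 0.05, and 53.2% had the same sign on both arrays. The ratios of the arrays correlated across genes at r = 0.389 (15379 genes, which are not independent replicates) outside the brightest 25% of genes, but at r = -0.572 within that 25%, where 28 of the 40 tested members lay.

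Cells prepare for division in a fixed order. Cyclin D and cyclin E with their kinases inactivate the Rb family and release E2F factors, which switch on the genes of DNA replication. Genes of G2 and mitosis are held silent in resting cells by the DREAM complex, which sits at the cell cycle genes homology region (CHR), and are later activated by B-Myb and FoxM1, with NF-Y bound at CCAAT boxes nearby. Cip/Kip inhibitors bind and block the cyclin-dependent kinases. In the embryonic ureter, mesenchymal and epithelial progenitors divide before the smooth muscle and urothelial layers mature, and RNA of whole ureters holds both layers.

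Mki67 and Cdk1 of the G2/M group, Mcm6 of the replication group, and Cdkn1b, which holds neither kind of site, serve as examples. Their sequences just upstream of the start do not stand for the groups as a whole. They are the 250 bases before the gene's start, read 5′ to 3′ on the gene's strand from RefSeq's GRCm38.p6 promoters, at chr7:135716380-135716629 (minus strand), chr10:69352913-69353162 (minus strand), chr1:128359706-128359955 (minus strand) and chr6:134920151-134920400 (plus strand). Capitals mark the letters of an E2F site or of a CHR on either strand.
Mki67: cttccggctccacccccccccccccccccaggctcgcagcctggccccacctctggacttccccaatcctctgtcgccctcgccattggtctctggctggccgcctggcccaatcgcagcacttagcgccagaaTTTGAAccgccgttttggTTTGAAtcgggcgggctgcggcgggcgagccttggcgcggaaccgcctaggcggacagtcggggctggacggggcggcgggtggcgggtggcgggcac
Cdk1: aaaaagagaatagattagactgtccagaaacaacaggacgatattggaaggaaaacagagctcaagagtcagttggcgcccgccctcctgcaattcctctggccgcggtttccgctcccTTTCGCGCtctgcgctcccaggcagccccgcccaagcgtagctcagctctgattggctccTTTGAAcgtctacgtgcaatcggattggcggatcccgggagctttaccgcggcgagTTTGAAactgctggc
Mcm6: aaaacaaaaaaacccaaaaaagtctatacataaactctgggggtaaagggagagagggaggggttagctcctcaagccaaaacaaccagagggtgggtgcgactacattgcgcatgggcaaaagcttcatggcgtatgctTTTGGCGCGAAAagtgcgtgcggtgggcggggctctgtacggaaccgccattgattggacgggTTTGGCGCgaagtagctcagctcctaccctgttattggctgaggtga
Cdkn1b: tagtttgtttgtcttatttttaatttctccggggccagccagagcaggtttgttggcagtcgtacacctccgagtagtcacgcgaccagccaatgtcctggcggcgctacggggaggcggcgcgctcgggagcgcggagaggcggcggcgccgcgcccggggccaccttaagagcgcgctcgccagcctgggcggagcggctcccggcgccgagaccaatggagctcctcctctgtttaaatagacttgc
In Mki67 the CHR letters lay 116 and 98 bases before the start. Cdk1 held an E2F site 131 bases before the start and CHR letters 71 and 15 bases before it. In Mcm6 E2F letters began 110, 106 and 47 bases before the start, and the first and second of these overlap on opposite strands.

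Motifs were counted over 300 bases (250 before to 50 after the start) on both strands. The E2F site was TTTCCCGC, TTTCGCGC, TTTGCCGC or TTTGGCGC, the CHR was TTTGAA or TTCGAA, and the CCAAT box was CCAAT. None of these words holds another, although E2F words can overlap each other. A gene with several promoters counted as holding a motif if any of them did. Of the 11 replication members with a promoter in the table, 5 (45.5%) held an E2F site (Mcm3, Mcm5, Mcm6, Mcm7 and Cdc6) and 2 (18.2%) held CHR letters. Of all 27025 genes with a promoter, 2.6% and 21.7% did. Of the 17 G2/M members with a promoter, 13 (76.5%) held CHR letters and 15 (88.2%) a CCAAT box, which 41.1% of all genes held. All 13 with CHR letters also held a CCAAT box, a combination found in 8.61% of all genes. Cdk1 was the G2/M member with an E2F site (1 of 17, 5.88%). Neither the 3 G1/S regulators nor the 2 Cdk inhibitors with a promoter held an E2F site or CHR letters in this window. The E2f1 window begins within coding letters of the gene, at a start inside it, so sites further upstream were not searched. The CHR share of the G2/M members depended on the window: within 200 bases before the start it was 47.1%, against 15.4% of all genes. Of the 12 further G1/S regulators with a promoter, such as E2F and Rb family genes, 7 (58.3%) held an E2F site and 6 (50%) CHR letters. These matches describe letters and not bound sites.

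**Figure D1:**
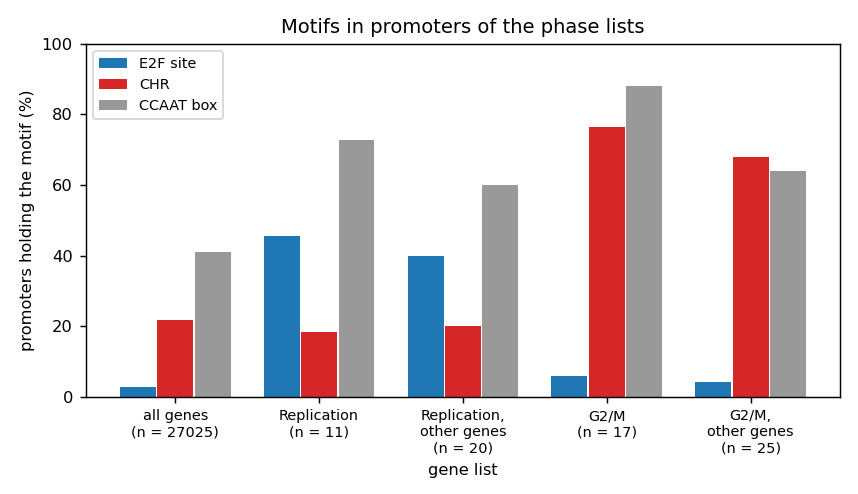
Share of genes (%, vertical axis) with an E2F site, CHR letters or a CCAAT box in any of their promoters. Shown are all 27025 genes of the table, the replication and G2/M members, and other genes of the same phases. E2F letters were held by 45.5% and 40% of the replication groups and CHR letters by 76.5% and 68% of the G2/M groups.

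No member passed the test, and none differed by at least 1.5-fold in a single direction on both arrays, as 146 genes (0.712%) did. Under limma's unadjusted p-values 2 of the 40 tested members were below 0.05, Ccna2 (0.041) and Mki67 (0.047). So were 1470 of all 20506 genes tested, a larger share than among the members. The lowest adjusted p of a member was 0.66 (limma, Ccna2), and no member passed under any other processing tried. Ratios above 0 on both arrays were found for 18 members (45%) against 27% of all genes tested, and ratios below 0 on both for 3 (7.5%) against 26.2%. The median ratio of the members was 0.08, against 0.00 for all genes. Of these 18, 13 were G2/M genes.

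**Figure D2:**
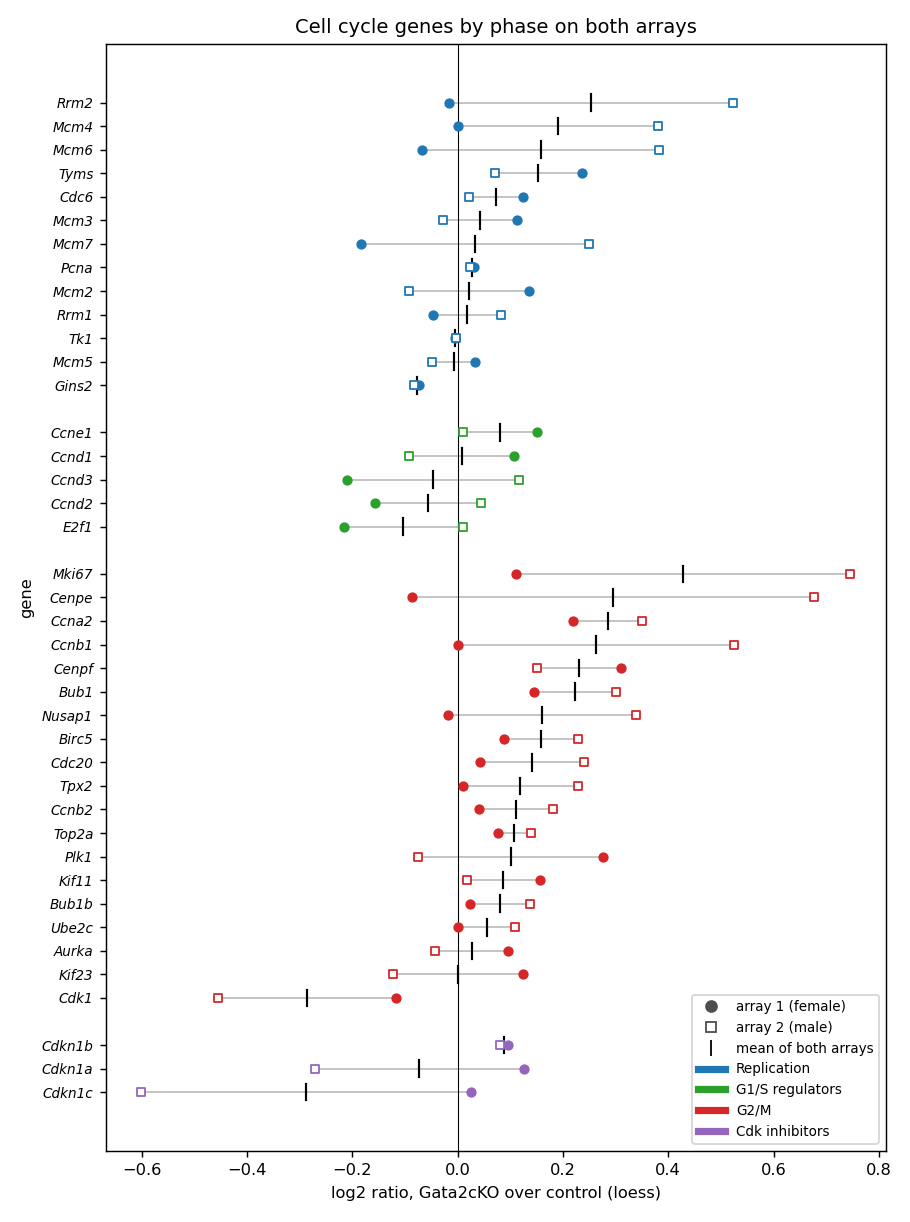
The log2 ratio of Gata2cKO over control (horizontal axis) of the 40 tested members on array 1 (filled circles) and array 2 (open squares), with the mean of both (bar), ordered by group and mean. The G2/M genes lie mostly to the right of 0 on both arrays, with Cdk1 to the left, whereas points of the other groups lie on both sides.

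Of the 19 tested G2/M members, 13 (68.4%) had a ratio above 0 on both arrays and 1, Cdk1, below 0 on both. The 13 include Ccnb1 and Ube2c, whose ratios on array 1 were 0.000415 and 0.000972, at which a sign has no weight. The mean ratio was positive for 18 and the group's median was 0.12, with 0.08 on array 1 and 0.18 on array 2. In 12 members both Gata2cKO values lay above both control values and in 1 (Cdk1) below, while the values of the RNAs did not overlap in 38.5% of all genes. The 12 also include Ccnb1 and Ube2c, whose control and Gata2cKO values on array 1 were nearly equal, so their separation has no weight either. The group's ratios are small, and none passed limma's test after adjustment over all genes. That result does not show that each ratio lies within the spread between the arrays. The mean exceeded the SD of the arrays in some members (Ccna2, mean 0.285 and SD 0.092) but not in others (Cenpe, mean 0.30 and SD 0.54).

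Mki67 encodes Ki-67, the coat protein of mitotic chromosomes that is widely used to stain dividing cells, and its probe lies at chr7:142881591-142881650 of mm9. Its normalized log2 signal was 16.22 in the control and 16.33 in the Gata2cKO RNA of array 1, and 15.96 and 16.71 on array 2. Both Gata2cKO values stood above both controls, but the gap was far wider in the male pair. The ratios were 0.11 and 0.75 (mean 0.43 ± 0.45, SD, n = 2; 95% interval of limma's moderated estimate 0.01 to 0.85; adjusted p = 0.68). Its other probe gave 0.13 and 0.66, so the gap between the arrays was seen with both probes.

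Ccna2 encodes cyclin A, the cyclin of S phase and G2, and its probe lies at chr3:36463978-36464037 of mm9. The control and Gata2cKO signals were 15.71 and 15.93 on array 1 and 15.66 and 16.01 on array 2, without overlap. Its ratios of 0.22 and 0.35 were closer to each other than those of Mki67 (mean 0.28 ± 0.09, SD, n = 2; interval 0.02 to 0.55; adjusted p = 0.66). The B-type cyclins drive entry into mitosis. Ccnb1 had ratios of 0.00 and 0.52, and its other probes gave 0.00 and 0.15, and 0.06 and 0.03, so the higher value on array 2 was that of the brightest probe. Ccnb2 had 0.04 and 0.18.

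Cdk1 is the kinase that these cyclins activate, and it was the exception, with its probe at chr10:68801072-68801131 of mm9. Its signal was 12.23 in the control and 12.11 in the Gata2cKO RNA of array 1, and 12.17 and 11.71 on array 2. Both Gata2cKO values lay below both controls. The ratios were -0.12 and -0.46 (mean -0.29 ± 0.24, SD, n = 2; interval -0.60 to 0.03; adjusted p = 0.73). Its other probes did not settle this: one gave -0.17 and -0.16, the other -0.20 and 0.20, and in the authors' deposited table the probe stood at 0.81 and -0.94 on the log2 scale.

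Among the kinetochore and checkpoint genes Cenpe alone had opposite signs on the arrays. Cenpe, the kinesin that moves chromosomes to the spindle equator, had the widest gap between arrays of the G2/M members. Its signals were 15.51 in the control and 15.43 in the Gata2cKO RNA of array 1, and 14.91 and 15.58 on array 2, so the RNAs overlapped. The ratios were -0.09 and 0.68 (mean 0.30 ± 0.54, SD, n = 2; adjusted p = 0.82). Cenpf, a kinetochore protein of late G2, had 0.31 and 0.15. The checkpoint kinase Bub1 had 0.15 and 0.30, and its relative Bub1b, which encodes BubR1, had 0.02 and 0.14, with a mean of -0.08 in the authors' deposited table. Cdc20 and Ube2c, which serve the ubiquitin ligase that ends mitosis, had 0.04 and 0.24, and 0.00 and 0.11.

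Genes of the spindle and of chromosome structure made up the rest of the group. Birc5, the survivin subunit of the chromosomal passenger complex, had 0.09 and 0.23, and its other 2 probes were also above 0 on both arrays, but its mean was -0.02 in the authors' deposited table. Aurkb, the kinase of the same complex, was the G2/M member that could not be tested. Top2a, the topoisomerase that untangles sister chromatids, had 0.08 and 0.14, and Tpx2, a spindle assembly factor, had 0.01 and 0.23, with 0.24 and -0.06 from its other probe. The motor Kif11 had 0.16 and 0.02. The arrays went opposite ways for 4 more genes: Nusap1, a microtubule-bundling protein (-0.02 and 0.34), the mitotic kinases Plk1 (0.28 and -0.08) and Aurka (0.10 and -0.04), and Kif23, a kinesin of the midbody (0.13 and -0.12).

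The direction of the G2/M group was the same with other sources of values, but the number of genes above 0 on both arrays was not. With the scanner's processed signals 14 of 19 were above 0 on both arrays and the median was 0.12. The authors' deposited table gave a G2/M median of 0.10, but 6 of 19 members were above 0 on both arrays, against 21% of all genes there. With each array centred on its median in place of loess, 7 were above 0 on both: 18 on array 1 but 7 on array 2, where 70% and 28.9% of all genes were above 0. The share also differed with brightness. Of the 13 G2/M members in the brightest 25% of genes 10 were above 0 on both arrays (median 0.14), against 21.5% of all genes as bright, and of the other 6 members 3 were (median 0.06), against 28.8%.

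**Figure D3:**
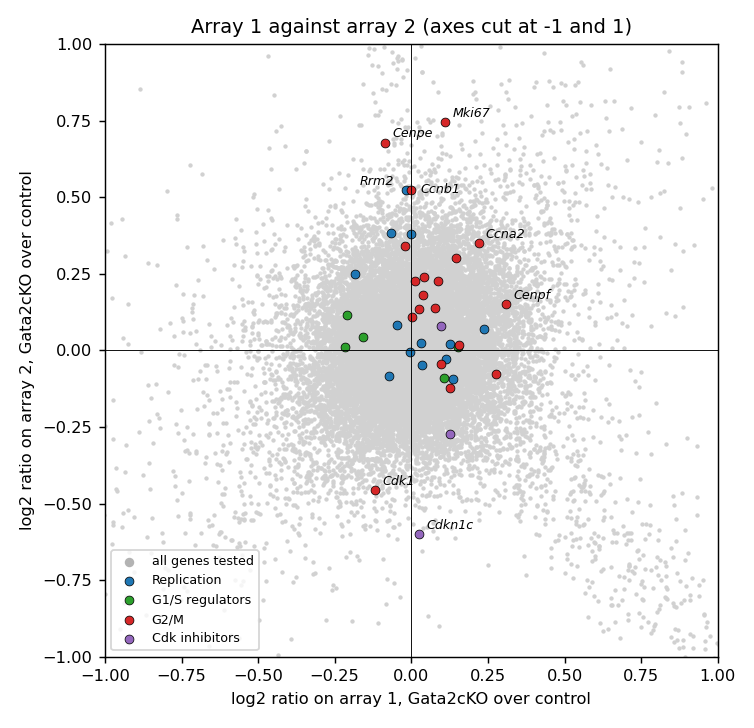
Log2 ratio on array 1 (horizontal) against array 2 (vertical) for all genes tested (grey) and the 40 tested members (coloured by group), with axes that end at -1 and 1, so genes beyond these are not drawn. G2/M members gather at upper right, where both ratios are above 0, with Cdk1 at lower left; Mki67, Cenpe, Ccnb1 and Rrm2 have far larger ratios on array 2 than on array 1.

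Signs were mixed among the replication genes. Of 13 members, 3 (23.1%) were above 0 on both arrays, 2 (Gins2 and Tk1) below 0 on both, and 8 went opposite ways, and 2 had values of the RNAs that did not overlap (Tyms and Pcna), a smaller share than the 38.5% of all genes. The median was 0.03, with 0.00 on array 1 and 0.02 on array 2, and the lowest adjusted p was 0.81 (limma, Rrm2). With the processed signals the median was 0.02, while the table deposited by the authors gave 0.07. The G2/M median exceeded the replication median by 0.09, by 0.08 on array 1 and 0.16 on array 2. It did so by 0.03 in the authors' deposited table. Without the brightest 25% of genes, an alternative added after the arrays had been seen to disagree there, the difference was -0.02, on 6 and 3 genes. The difference between the groups was not tested. Among other genes of these phases, which are not members, the medians were 0.12 for G2/M and 0.06 for replication. Of these, 53.3% and 48% were above 0 on both arrays, against 27% of all genes, so both lists leaned upward.

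The MCM genes encode the ring-shaped helicase that opens DNA at origins. Mcm4 (0.00 and 0.38), Mcm6 (-0.07 and 0.38) and Mcm7 (-0.18 and 0.25) had their higher ratio on array 2, and Mcm2 (0.14 and -0.09), Mcm3 (0.11 and -0.03) and Mcm5 (0.03 and -0.05) on array 1. The ratio of Mcm4 on array 1, -0.0002174, has no sign to speak of, and the other 5 had opposite signs on the arrays. Gins2 belongs to the GINS complex, which works with the helicase. Its signals were 15.11 in the control and 15.04 in the Gata2cKO RNA of array 1, and 15.03 and 14.95 on array 2. The RNAs overlapped, since the Gata2cKO value of array 1 exceeded the control value of array 2. The ratios of -0.07 and -0.08 were nearly alike (mean -0.08 ± 0.01, SD, n = 2; adjusted p = 0.95). Cdc6, which loads the helicase onto origins, had signals of 10.54 and 10.66 on array 1 and 10.48 and 10.50 on array 2 in the control and Gata2cKO RNA. Its ratios were 0.12 and 0.02 (mean 0.07 ± 0.07, SD, n = 2; adjusted p = 0.96), and its other probe gave -0.03 and 0.11.

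Genes of nucleotide supply also differed among themselves. Rrm2, the S phase subunit of ribonucleotide reductase, had signals of 15.41 in the control and 15.39 in the Gata2cKO RNA of array 1, and 15.12 and 15.64 on array 2. Its ratios of -0.02 and 0.52 (mean 0.25 ± 0.38, SD, n = 2; adjusted p = 0.81) spread as widely as those of Ccnb1. Rrm1, which encodes the other subunit of that enzyme, had -0.05 and 0.08. Tyms encodes thymidylate synthase, and its signals of 11.43 and 11.67 on array 1 and 11.53 and 11.60 on array 2 did not overlap between the RNAs. Its ratios were 0.24 and 0.07 (mean 0.15 ± 0.12, SD, n = 2; adjusted p = 0.84). Tk1, which encodes thymidine kinase, had ratios of -0.004792 and -0.003648, next to 0 on both arrays. Pcna, the sliding clamp of the polymerases, had 0.03 and 0.02.

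The G1/S regulators showed no common direction. Of 5 tested members, 1 was above 0 on both arrays, none was below 0 on both, and 4 went opposite ways. Of all genes tested, 27% were above and 26.2% below 0 on both. In none of the 5 were the RNAs free of overlap, against 38.5% of all genes, but 5 genes are too few to compare such shares. The median was -0.05, with -0.16 and 0.01 on the arrays, and it was -0.06 with the processed signals but 0.16 in the authors' deposited table. Cyclin D genes link growth signals to the cell cycle. Ccnd1 had signals of 15.98 in the control and 16.09 in the Gata2cKO RNA of array 1, and 16.15 and 16.05 on array 2. Its ratios were 0.11 and -0.09 (mean 0.01 ± 0.14, SD, n = 2; interval -0.27 to 0.29; adjusted p = 0.997).

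Ccnd2 had signals of 16.64 and 16.48 on array 1 and 16.46 and 16.51 on array 2. Its ratios of -0.16 and 0.05 (mean -0.06 ± 0.14, SD, n = 2; interval -0.34 to 0.22; adjusted p = 0.98) ran opposite to those of Ccnd1. Ccnd3 had signals of 15.96 and 15.75 on array 1 and 15.66 and 15.78 on array 2. Its ratios were -0.21 and 0.12 (mean -0.05 ± 0.23, SD, n = 2; adjusted p = 0.99), and its other probe gave -0.05 and -0.23. Ccne1 encodes cyclin E, which acts after cyclin D; its signals were 14.99 and 15.14 on array 1 and 14.96 and 14.97 on array 2. Its ratios were 0.15 and 0.01 (mean 0.08 ± 0.10, SD, n = 2; adjusted p = 0.95), but its other probe gave 0.15 and -0.08, and with the mean of probes no G1/S regulator was above 0 on both arrays. E2f1, the founding E2F factor, had -0.22 and 0.01.

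The 3 Cdk inhibitors went different ways. Cdkn1b, which encodes p27, was the inhibitor with ratios that nearly matched. Its signals were 12.24 in the control and 12.34 in the Gata2cKO RNA of array 1, and 12.21 and 12.29 on array 2, without overlap. The ratios were 0.10 and 0.08 (mean 0.09 ± 0.01, SD, n = 2; interval -0.17 to 0.35; adjusted p = 0.94). In the authors' deposited table the same probe stood at 0.33 and -0.35.

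Cdkn1c encodes p57, the product of an imprinted gene that embryos use widely as cells leave the cycle. Its signals were 17.39 and 17.42 on array 1 and 17.53 and 16.93 on array 2. Array 2 alone held a low Gata2cKO value, and the RNAs overlapped. The ratios were 0.03 and -0.60 (mean -0.29 ± 0.44, SD, n = 2; interval -0.70 to 0.13; adjusted p = 0.80). With the processed signals the ratios were -0.29 and -0.38, while the authors' deposited table held 0.37 and -0.67, so the sign on array 1 differed between these sources.

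Cdkn1a encodes p21, the inhibitor induced by p53. Its signals, the mean of 10 spots, were 10.23 in the control and 10.36 in the Gata2cKO RNA of array 1, and 10.38 and 10.11 on array 2. The ratios were 0.13 and -0.27 (mean -0.07 ± 0.28, SD, n = 2; interval -0.41 to 0.26; adjusted p = 0.97). Another detected probe of the gene gave 0.08 and 0.11. The median of the 3 inhibitors was 0.10 on array 1 and -0.27 on array 2.

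Other genes of the same phases, which are not members, were read in the same way, and none of them passed the test. Of 30 further G2/M genes, 16 (53.3%) were above 0 on both arrays and none below 0 on both, against 27% and 26.2% of all genes. A mean above 0 was found for 26. Their median was 0.12, close to that of the members, with 0.11 on array 1 and 0.15 on array 2; it was 0.12 with the processed signals and 0.07 in the authors' deposited table. Ttk, the checkpoint kinase Mps1, had 0.30 and 0.37 (mean 0.34 ± 0.05, SD, n = 2; adjusted p = 0.55, limma).

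Of 25 further replication genes, 12 (48%) were above and 3 below 0 on both arrays, against 27% and 26.2% of all genes. Their median was 0.06. Gins4, another subunit of the GINS complex, had -0.18 and -0.10. Of 14 further G1/S regulators, 8 (57.1%) were above 0 on both and 1, Cdk6, below, with a median of 0.10. Rbl1, which encodes the Rb relative p107, had 0.23 and 0.22. Cdk6, a partner of the D-type cyclins, had -0.17 and -0.44, but 0.18 in the authors' deposited table. Of 9 tested genes of the Ink4 family and of p53 and its targets, 2 were above and 5 below 0 on both, with a median of -0.08. Gadd45a, a stress gene induced by p53, had -0.16 and -0.35, and Ccng1, another p53 target, had 0.12 and 0.31.

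**Figure D4:**
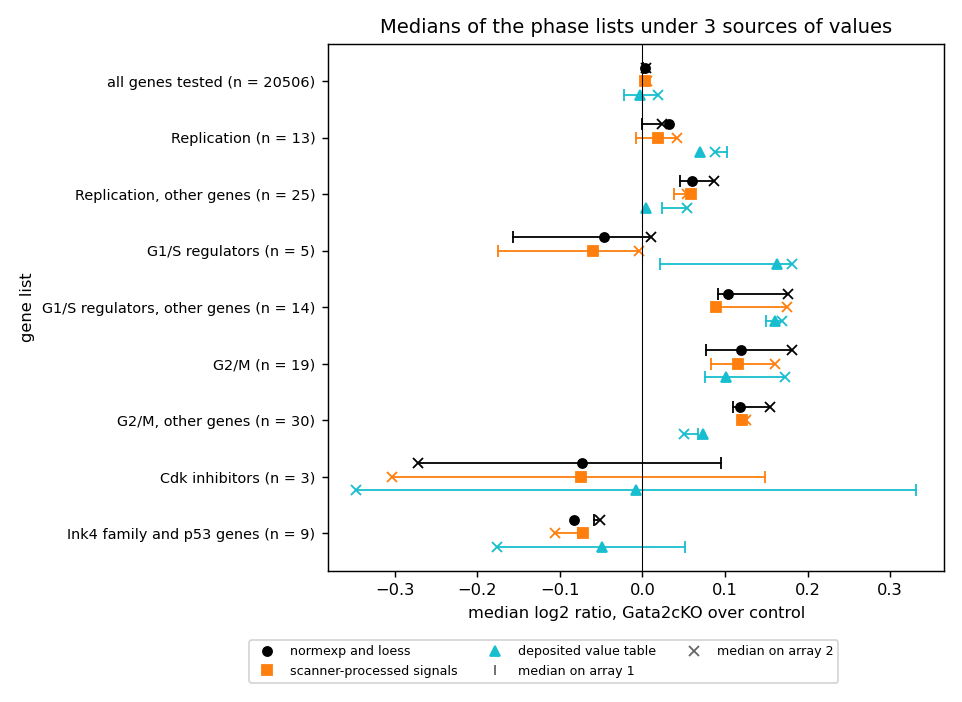
Median log2 ratio of Gata2cKO over control (horizontal axis) of each group, from loess-normalized ratios, the scanner's processed signals and the authors' deposited table; large symbols are medians of the mean over both arrays, and the ends of each line are the medians on array 1 and array 2. The G2/M groups lie right of 0 in all 3 sources (0.12, 0.12 and 0.10 for the members). So do the replication members (0.03, 0.02 and 0.07) and the other replication genes (0.06, 0.06 and 0.004). The other G1/S regulators do so as well (0.10, 0.09 and 0.16), whereas the G1/S members change side (-0.05, -0.06 and 0.16).

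Markers of the cell types of the ureter also differed between the RNAs, and their part in the G2/M ratios was not tested. In whole ureters fewer cells of a type and less RNA per cell cannot be told apart. Of 9 tested smooth muscle markers, 8 had ratios below 0 on both arrays. Their median was -0.69, and their summed linear signal was 77200 and 81660 in the control RNAs and 59070 and 55850 in the Gata2cKO RNAs. Of 10 neuron and glia markers, 9 were below 0 on both (median -0.91), with sums of 37160 and 27330 against 17420 and 16570. Of 9 macrophage markers, 8 were below 0 on both (median -0.32), with sums of 42430 and 39900 against 31960 and 33420. Of 10 urothelial markers, 5 were above 0 on both and none below (median 0.22), but their sums overlapped, at 64330 and 88930 against 86270 and 99890. Endothelial markers had a median of -0.12 with overlapping sums (110400 and 102700 against 95830 and 103400), as did erythroid markers with -0.13 (464300 and 786200 against 788600 and 370000). In the authors' deposited table the urothelial median was -0.15 and the endothelial median 0.10, while the medians of the other marker lists stayed below 0. The markers not tested were Lmod1 and Fcgr1, which did not pass the detection filter, and Hbb-b1, which had no probe by that name. The single marker that passed limma's test was in the neuron and glia list.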

How the data were processed

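Ureters were profiled on 2 dye-swapped 2-colour arrays of 44397 spots each. Per the file headers, the authors read them with Agilent Feature Extraction 10.7.3.1, with probe positions on mm9. The deposited intensity values are each spot's mean signal and its local background (median 33.5 to 70), on a linear scale. Processed signals were background-subtracted, detrended and dye-normalized, and the log10 ratio is red over green, per the file headers. The authors' deposited value table is, from its values, a signed fold change with a median of 1 on both arrays and exactly 1 for 28% and 28.3% of probes. Its making is not stated in the labels, and the direction came from its correlation with the scanner ratios (0.358 and 0.273).

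Background was corrected by normexp (offset 50) and ratios were normalized by loess with span 0.3, giving no weight to controls and outliers (255 and 178 outlier spots, 0 saturated). Array 2 was turned. Spots of a probe were averaged, 25657 probes passed detection, and the brightest probe stood for a gene. Signals per RNA were scaled between arrays by Aquantile. Accessions matched to RefSeq named 26412 of 39429 probes, and the file's names were kept for 13017. limma 3.58.1 (R 4.3.3) tested ratios against 0, two-sided, with Benjamini-Hochberg adjustment over all genes, 1 residual degree of freedom, and a prior of 4.68 degrees of freedom and SD 0.163. The number of arrays limits the precision. The code was tested on simulated data. Members and lists were chosen with earlier results of these data known. Values in every RNA are given for the 3 largest same-sign ratios and the widest gap per group, and for Mki67, Ccnd1, Ccnd2 and the inhibitors. Of each further list the gene with the largest ratio on its weaker array is named in each direction, except for an item not reported here. Alternatives were processed signals, the deposited table, median centring, offset 0, no detection filter, the mean of probes, eBayes with trend and robust, and leaving out an array. Exons were not assigned, since no mm9 annotation was used here.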

Additional observations from a re-analysis of the deposited data

Results flagged for a closer look

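Several members had ratios of opposite sign on the female and the male array. With 1 array of each sex, which also differ in dye orientation, these differences were not tested. The gap (array 2 minus array 1) was 0.76 for Cenpe, 0.54 for Rrm2, 0.33 for Ccnd3, 0.20 for Ccnd2, -0.20 for Ccnd1, -0.40 for Cdkn1a and -0.63 for Cdkn1c. Of the group medians, that of the replication genes differed by 0.0243, from -0.000217 on array 1, a value too near 0 for its sign to count. The median of the G1/S regulators differed in sign by 0.167 and that of the Cdk inhibitors by -0.368. In all, 19 of the 40 tested members had opposite signs: on both arrays the 647 channel was the brighter for 9 of them and the 555 channel for 10.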

How the results depend on the processing

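No member passed the test under any alternative, and the G2/M median kept its sign under each one, between 0.06 without the brightest 25% of genes and 0.18 on array 2 alone. The count of genes past the threshold, 18 as reported, was 165 with processed signals, 47 with offset 0, 54 without the detection filter, 376 with eBayes set to trend and robust, and 364 without the brightest 25% of genes. It was 0 with the deposited table (972 at an unadjusted p under 0.05) and 0 with median centring (492). The cause of these changes was not tested. Without the brightest 25%, 15379 genes were tested and 1890 had an unadjusted p under 0.05 (limma). In the fit as reported, 1319 of the same genes did.

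The replication median was 0.0694 in the deposited table, -0.00426 with median centring, 0.0734 without the brightest 25% of genes, and -0.000217 to 0.0241 on single arrays. The G1/S median was 0.163 in the deposited table. G2/M minus replication was -0.0167 without the brightest 25%, and 0.0768 to 0.157 on single arrays. Members with the same sign on both arrays numbered 21, but 10 with median centring and 7 (of 12) without the brightest 25%. G2/M members above 0 on both arrays, a count repeated under the alternatives after its value was seen, numbered 6, 7 and 3 (of 6) with the deposited table, median centring and without the brightest 25%. The CHR share was 47.1% in the 200-base window.

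Single ratios of the members given with all their signals changed sign as follows, and the cause was not tested. In the deposited table Gins2 was 0.0694, Cdc6 -0.0448, Cdkn1b -0.00767, Ccnd3 0.0187, Ccnd2 0.207 and Cdkn1a 0.076. Of the other members, Birc5 (-0.02), Bub1b (-0.08), Kif23 (-0.06), Pcna (-0.15), Rrm1 (-0.0001702) and Mcm5 (0.12) changed sign there, and Kif23 (-0.007719) with processed signals. Ccnd1 was -0.00367 with processed signals and -0.057 with median centring, and Cdkn1a was 0.011 with the mean of probes. On single arrays the ratio ranged from -0.0862 to 0.677 for Cenpe, -0.601 to 0.0258 for Cdkn1c, -0.0159 to 0.523 for Rrm2, -0.21 to 0.116 for Ccnd3, -0.0917 to 0.107 for Ccnd1, -0.157 to 0.0451 for Ccnd2 and -0.272 to 0.125 for Cdkn1a. A single array allows no test. Each array sets 1 control against 1 Gata2cKO RNA, so the test of the ratios against 0 is already paired within arrays. Removing the brightest 25% of genes was chosen after seeing the data.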
